A study of Mus musculus with 16 samples.

Results

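GABAergic cells sorted from cortex were compared with GABAergic cells sorted from striatum, on the 3 arrays titled for cortex and the 3 titled for striatum, which are 6 of the 16 arrays of the study. Both groups came from newborn mice at postnatal day 1 that carry GAD67-eGFP on a C57Bl/6 background, a line whose fluorescence follows the gene of glutamate decarboxylase 67, an enzyme of GABA synthesis. Brains of 6 mice were dissected into regions, the tissue was dissociated, and fluorescent cells were collected by flow sorting. Each array set amplified cDNA of the sorted cells (Cy5) against amplified cDNA of a whole-brain reference (Cy3) from 4 mice of the same age, with 250 ng of each, and the dyes were never swapped. No treatment was given, and the whole-brain reference contains the GABAergic cells too. The labels name biological replicates 1 to 3 of each region but do not say whether cortex and striatum samples share animals. The p-values rest on the spread between replicate arrays within groups, estimated over all 16 arrays of the study. The gate takes every fluorescent cell, so each sample pools all GABAergic classes of its region, and fewer cells of a class cannot be told apart from less RNA per cell.

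Forebrain GABAergic neurons are born in the ganglionic eminences below the future striatum. The medial eminence, marked by Nkx2-1 and then Lhx6 and Lhx8, gives somatostatin and parvalbumin interneurons that migrate into the cortex, while some of its cells stay and become striatal and cholinergic interneurons. The lateral eminence gives the projection neurons that make up most of the striatum, with Isl1 in the direct-pathway and Penk in the indirect-pathway neurons, and the caudal eminence gives a further set of cortical interneurons. By anatomy the cortex holds interneurons but no striatal projection neurons, so the comparison would set a migrated interneuron population against a mixed local one. Which cell classes the sorted samples held was not measured.

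The values are log2 ratios of sorted cells to reference, and every difference is cortex minus striatum. A gene was called at an adjusted p under 0.05 in limma's moderated test with Benjamini-Hochberg adjustment over 27257 genes. All 16 arrays entered the fit. Arrays correlated across genes at Pearson's r of 0.964 to 0.973 within cortex and 0.95 to 0.969 within striatum, against 0.891 to 0.927 between the groups. Genes are not independent replicates. Cortex arrays were dimmer: their median sorted-cell signal was 150.9 to 255.5 units, against 295.7 to 389.3 on striatum arrays, and 78.1% to 86.4% of spots were well above background against 88.1% to 91.4%. The arrays were scanned on 1 day in an order that followed the regions, and striatum replicate 2 was extracted with a different software protocol, so scan order and region cannot be told apart.

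The reference channel should be alike on all arrays, yet it was not. Sftpc, the lung surfactant protein C gene, had a reference signal of 72.1, 84.2 and 102 units on cortex arrays, against 3000, 3810 and 3380 units on striatum arrays. Its sorted-cell signal also stood at 112, 171 and 193 units on cortex arrays, against 1410, 2220 and 3070 units on striatum arrays. In both channels all 3 striatum arrays were above all 3 cortex arrays. A list of 13 lung epithelium genes, drawn up after these values were seen, had a mean reference brightness of 7.62 to 7.76 (log2) on cortex arrays and 9.26 to 9.46 on striatum arrays, and a mean sorted-cell brightness of 7.84 to 7.94 and 8.45 to 8.62. The cerebellum arrays and whole-brain replicates 2 and 3 were as bright as striatum in the reference channel, while olfactory bulb was as dim as cortex. Among cortex and striatum arrays this difference runs with the groups. Whole-brain arrays split in the reference channel, at 9.65 and 9.51 on replicates 2 and 3 and 7.75 and 8.02 on replicates 1 and 4. The reference was whole brain on every array, whichever region was sorted. In the sorted-cell channel array and region cannot be told apart for these genes, and the cause was not tested.

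**Figure D1:**
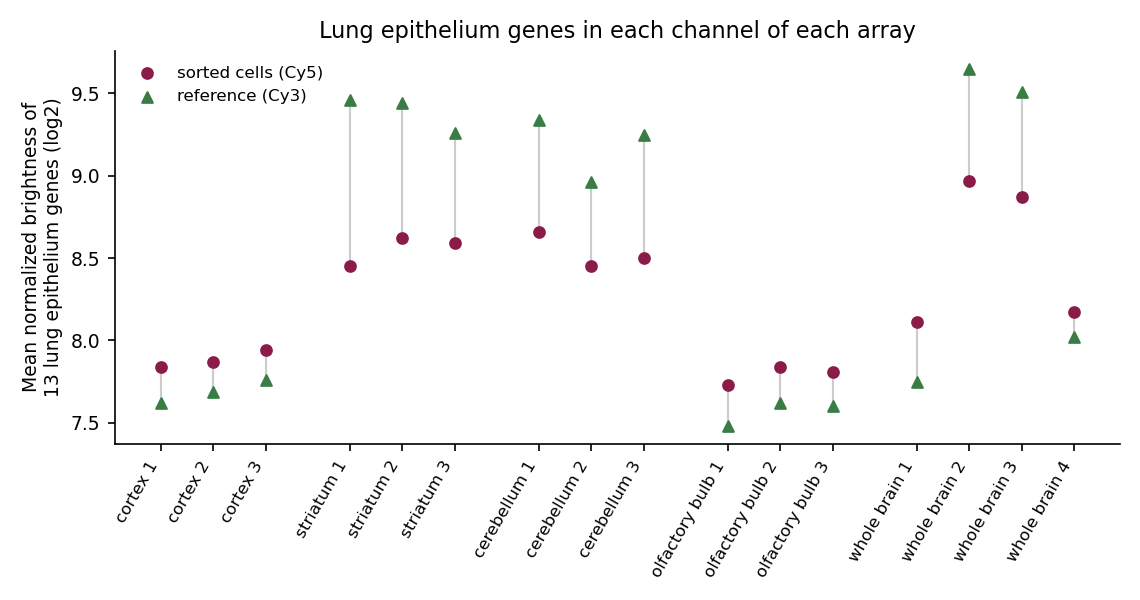
Mean normalized brightness (log2) of 13 lung epithelium genes in the sorted-cell channel (circles) and the reference channel (triangles) of each of the 16 arrays. The reference channel lay at 7.62 to 7.76 on cortex arrays and 9.26 to 9.46 on striatum arrays, and the sorted-cell channel moved the same way by less.

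Cortex and striatum cells differed at 5129 of 27257 genes (18.8%). Of these, 2436 (8.94%) were higher and 2693 (9.88%) lower in cortex, and the median difference of all genes was 0.02. The counts by gene list given below stand against these shares of all genes. At least a 2-fold difference was reached by 102 genes (0.374%), of which 37 were higher (0.136%) and 65 lower (0.238%). With median centring in place of loess, the 2-fold genes were 23 higher and 104 lower. They were 278 higher and 337 lower with a normexp offset of 0, and 265 higher and 398 lower in the scanner's log ratio. The 3 arrays of cortex and the 3 of striatum did not overlap at 12113 genes (44.4%), with cortex above at 6817 (25%) and below at 5296 (19.4%). The number of genes called was 2664 without cortex replicate 1, 2627 without cortex replicate 3, 2981 without striatum replicate 1 and 3036 without striatum replicate 2.

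Of the 5129 genes called, 4999 had the same sign in the sorted-cell channel alone. That signal is itself part of the ratio and was normalized together with the reference channel, so agreement in sign is partly built in. In the sorted-cell channel alone 3608 genes were called (13.2%), 1923 higher and 1685 lower in cortex. Of these, 143 had at least a 2-fold difference (0.525%), 55 higher and 88 lower. Both the ratio and that channel called 2298 genes the same way, 1120 of the 2436 higher and 1178 of the 2693 lower. Among the genes that differed at least 2-fold in the ratio, the directions divided by channel. Of the 65 genes at least 2-fold lower in cortex, 63 were also called lower in the sorted-cell channel, where their median difference was -1.22 against 0 in the reference channel. Of the 37 at least 2-fold higher, 8 were called in the sorted-cell channel, 28 differed more in the reference channel, and 21 had the opposite sign in the sorted cells. Their median difference was -0.27 in the sorted-cell channel and -1.4 in the reference channel.

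**Figure D2:**
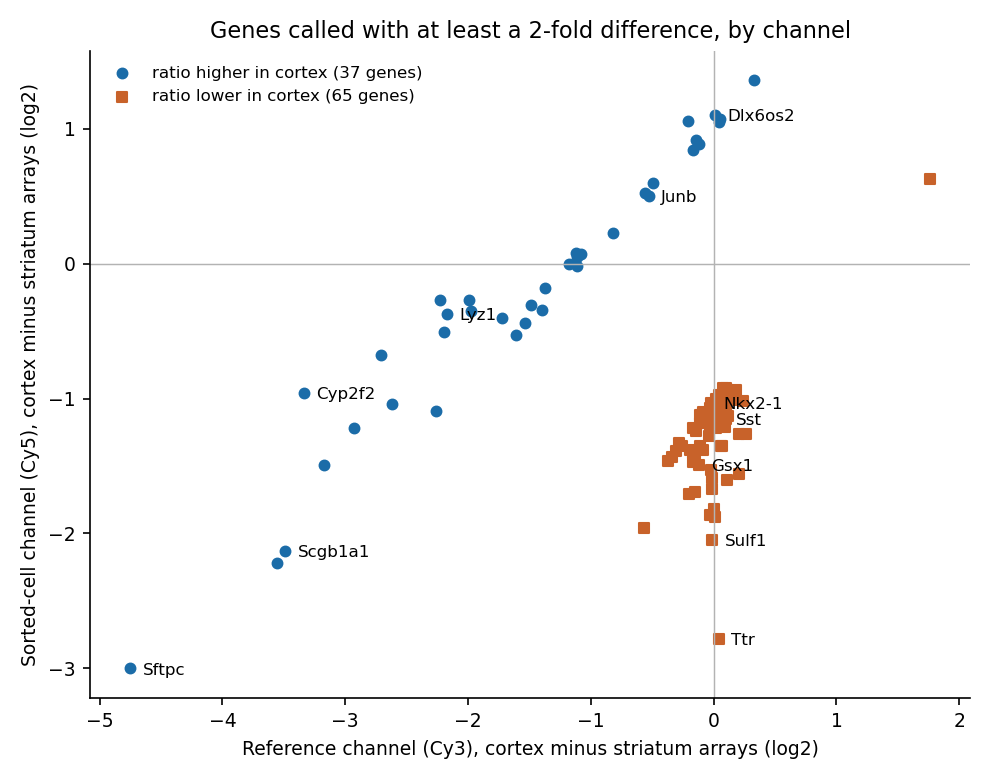
Cortex minus striatum difference (log2) in the reference channel (x axis) and in the sorted-cell channel (y axis) for the 102 genes called with at least a 2-fold difference in the ratio. The 65 genes lower in cortex (squares) gather near 0 in the reference channel, while the 37 higher genes (circles) trail to the lower left, with Sftpc at -4.75 and -3.0.

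The 15 highest log2 differences belonged to Cyp2f2, Sec14l3, Calcrl, Lyz1, Sftpc, Inmt, Sftpa1, Selenbp1, Gsn, Selenbp2, Wfdc2, Scgb1a1, Cbr2, Thbd and Aqp5, from 2.38 for Cyp2f2 to 1.19 for Aqp5. None of the 15 was called higher in the sorted-cell channel, where 14 had the opposite sign and Sftpc, Sftpa1, Gsn, Wfdc2, Scgb1a1 and Cbr2 were called lower. Sec14l3 was not well above background in the sorted cells of any cortex array, so its mean sorted-cell signal was at least 1.61-fold lower there, a difference that did not pass (adjusted p = 0.0519). Sftpc, Sftpa1, Scgb1a1, Cyp2f2, Wfdc2 and Aqp5 are on the lung list. Sftpc had log2 ratios of 0.03, -0.03 and 0.00 on cortex arrays and -2.26, -1.81 and -1.21 on striatum arrays, a difference of 1.76 ± 0.52 (SE, adjusted p = 0.0256), although its sorted-cell signal was lower in cortex, at -3.0 on the log2 scale (adjusted p = 0.000896). Scgb1a1, the club cell secretory protein, had ratios of 0.25, 0.39 and 0.38 in cortex against -1.31, -0.92 and -0.81 in striatum, with a sorted-cell difference of -2.13. Lyz1, a lysozyme gene, had ratios of 1.29, 1.14 and 1.07 in cortex against -0.60, -0.23 and -1.08 in striatum, with a sorted-cell difference of -0.37. For all 3 genes the ratios of the groups did not overlap, as the choice of the 15 required and as at 44.4% of all genes. Their sorted-cell signal was not higher in cortex. Of the 13 lung genes 9 were called higher and 0 lower, with a median difference of 1.09 in the ratio, -0.31 in the sorted cells and -1.49 in the reference. The calls of Cbr2, Gsn and Sftpc were lost without any one of cortex replicates 1, 2 and 3 and striatum replicates 1 and 2, with adjusted p up to 0.138, 0.207 and 0.106. The spread behind these p-values includes the whole-brain arrays, where Sftpc had ratios of 1.37, -1.46, -1.41 and 0.91. The call of Inmt was lost without cortex replicate 1 or 3 or striatum replicate 1 or 2 (up to 0.087), that of Calcrl without cortex replicate 3 or striatum replicate 1 or 2 (up to 0.09), that of Aqp5 without striatum replicate 1 or 2 (up to 0.0631) and that of Cyp2f2 without striatum replicate 1 (0.0719).

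Genes that make, load and clear GABA gave no call between the regions. Against the whole-brain reference, 18946 genes were called in cortex cells (69.5%) and 18416 in striatum cells (67.6%), Gad1 and Gad2 among the higher ones in both. Gad2, which encodes glutamate decarboxylase 65, had log2 ratios of 1.74, 1.91 and 1.82 in cortex and 1.97, 1.70 and 1.65 in striatum. Gad1, which encodes the enzyme whose locus drives the reporter, had 0.74, 0.93 and 0.70 in cortex and 1.06, 0.90 and 0.78 in striatum. The 2 regions overlapped for both genes. Their differences were 0.05 ± 0.11 (SE, adjusted p = 0.813) for Gad2 and -0.12 ± 0.13 (adjusted p = 0.555) for Gad1. Limma called 0 of 5 such genes either way, against 18.8% of all genes, with a median difference of -0.03. The vesicular transporter Slc32a1 differed by -0.14 and the GABA transaminase Abat by 0.19, each with the value of a cortex array missing. In the sorted-cell channel Slc32a1 stood at 11.37 and 11.56 (log2) in cortex, against 12, 12.06 and 12.11 in striatum. It was not called there. Gad1, Gad2 and Slc32a1 were all above the reference in cortex and in striatum.

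Genes of the medial ganglionic eminence were among the neuronal genes most clearly lower in cortex. Nkx2-1, the homeobox factor that specifies this eminence and is switched off in interneurons bound for cortex, had log2 ratios of 0.05, -0.01 and -0.06 in cortex against 1.03, 0.95 and 1.01 in striatum. Its sorted-cell signal was 220, 375 and 375 units on cortex arrays and 1090, 901 and 1280 on striatum arrays. The difference was -1.01 ± 0.14 (SE, adjusted p = 0.000134) in the ratio and -1.03 in the sorted-cell channel (adjusted p = 0.00048). The regions did not overlap in the ratio, as at 44.4% of all genes. Cortex cells held Nkx2-1 close to the level of the whole brain, and striatum cells at about 2-fold that level.

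Sst, the neuropeptide somatostatin, had ratios of -3.26, -3.30 and -3.57 in cortex against -2.08, -2.14 and -2.19 in striatum. The difference was -1.24 ± 0.12 (SE, adjusted p = 2.96e-06), and every array of both regions lay below the reference. Npy, the neuropeptide Y gene found in part of the somatostatin interneurons, had ratios of -2.12, -1.86 and -2.25 in cortex against -0.86, -0.93 and -1.09 in striatum (-1.12 ± 0.12, adjusted p = 1.3e-05). In the sorted-cell channel Sst and Npy were lower in cortex by -1.15 and -0.94. Both peptides thus fell in cortex relative to striatum by more than the spread between replicates while staying under the whole-brain level in both regions.

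Lhx8, a LIM homeobox factor of cholinergic neurons, had ratios of -0.93, -0.78 and -0.89 in cortex against 0.28, 0.17 and 0.14 in striatum (-1.06 ± 0.12, adjusted p = 1.94e-05). Its second probe differed by -0.04. Lhx6, the LIM factor kept by migrating interneurons of the medial eminence, had ratios of 0.38, 0.22 and 0.33 in cortex against 0.86, 0.87 and 0.61 in striatum (-0.47 ± 0.09, adjusted p = 0.00227), but its sorted-cell channel alone did not pass (-0.24, adjusted p = 0.305). In all, 4 of 15 genes of this eminence fell (Nkx2-1, Sst, Npy, Lhx6), 2 were higher and 9 were not called, around a median of 0.05. Of all genes 9.88% fell and 8.94% were higher. The higher ones were Elfn1 (0.54), a synaptic protein of somatostatin cells, and the neuregulin receptor Erbb4 (0.39). Neither was called in the sorted-cell channel. Elfn1 lost its call without cortex replicate 1 or striatum replicate 2 (adjusted p up to 0.0882), and Erbb4 without any array but cortex replicate 2 (up to 0.196). Sox6 (0.05), Satb1 (-0.05) and Cxcr4 (0.02), which act in the same lineage, did not pass. Of 8 genes of striatal cholinergic interneurons, Lhx8 alone was called, against 18.8% of all genes. The acetylcholine-synthesising enzyme gene Chat differed by 0.17.

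The promoters of Nkx2-1, Sst and Npy, the 3 genes of this eminence that fell at least 2-fold, are shown because they changed in the same direction. Each runs from 250 bases before to 50 after the annotated start in RefSeq (GRCm38.p6). Matches to short motifs, searched on both strands, stand in capitals. The cAMP response element was searched as TGACGTCA. The homeodomain core was searched as TAATTA. The GC box was searched as GGGCGG. The TATA box was searched as TATAAA. Overlaps between motifs were allowed, and the matches shown do not overlap each other.
Nkx2-1, chr12:56536859-56537158, minus strand: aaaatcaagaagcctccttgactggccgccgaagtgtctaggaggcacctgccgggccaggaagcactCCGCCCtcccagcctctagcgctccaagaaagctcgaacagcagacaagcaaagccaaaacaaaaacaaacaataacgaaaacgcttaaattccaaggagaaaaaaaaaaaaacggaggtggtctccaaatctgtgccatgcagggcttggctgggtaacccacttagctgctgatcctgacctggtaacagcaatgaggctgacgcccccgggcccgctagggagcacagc
Sst, chr16:23890795-23891094, minus strand: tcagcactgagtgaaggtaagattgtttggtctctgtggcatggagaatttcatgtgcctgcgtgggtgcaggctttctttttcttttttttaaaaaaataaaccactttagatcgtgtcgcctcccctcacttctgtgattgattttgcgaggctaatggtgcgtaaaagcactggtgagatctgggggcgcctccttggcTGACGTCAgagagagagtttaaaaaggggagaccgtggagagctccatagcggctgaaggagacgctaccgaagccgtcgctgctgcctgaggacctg
Npy, chr6:49822460-49822759, plus strand: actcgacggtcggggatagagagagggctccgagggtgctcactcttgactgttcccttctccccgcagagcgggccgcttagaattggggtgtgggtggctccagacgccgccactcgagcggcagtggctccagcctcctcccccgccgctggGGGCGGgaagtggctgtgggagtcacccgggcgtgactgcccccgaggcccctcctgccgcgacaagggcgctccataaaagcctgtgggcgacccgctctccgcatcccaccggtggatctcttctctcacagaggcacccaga
Sst held the cAMP response element 48 bases upstream of its start, a sequence present in 1.79% of 32851 promoters in the table. Npy held a GC box 95 bases upstream, and Nkx2-1 held one on the opposite strand 182 bases upstream, against 35.7% of promoters. No motif searched was found in all 3 windows.

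Factors of striatal projection neurons were lower in cortex for some members. Isl1, a LIM homeobox factor of direct-pathway neurons, had ratios of 0.61, 0.64 and 0.52 in cortex against 1.48, 1.27 and 1.54 in striatum (-0.84 ± 0.12, adjusted p = 0.000195). Bcl11b, the zinc-finger factor also known as Ctip2, had 0.28, 0.46 and 0.24 in cortex against 1.1, 0.95 and 0.98 in striatum (-0.68 ± 0.09, adjusted p = 8.97e-05). Foxp1, a forkhead factor of projection neurons, had -0.05, -0.12 and -0.18 in cortex against 0.42, 0.36 and 0.26 in striatum (-0.46 ± 0.09, adjusted p = 0.00247). All 3 genes were called in the sorted-cell channel as well, at -1.05, -0.91 and -0.45. The regions did not overlap for any of the 3 genes, as at 44.4% of all genes. Zfhx3 also fell (-0.43, sorted-cell channel -0.34 with adjusted p = 0.104), whereas the homeobox gene Meis1 was higher in cortex (0.37, sorted-cell channel 0.45 with adjusted p = 0.0169), a call lost with median centring and without cortex replicate 3 or striatum replicate 3 (adjusted p up to 0.0556). Of 15 factors measured, 4 fell, 1 rose and 10 were not called, with a median of -0.20. Foxp2 (-0.10), Ebf1 (-0.36), Rarb (-0.24), Six3 (-0.20) and Meis2 (0.09) did not pass.

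Signalling genes of the same neurons were measured as well. Penk, which encodes the enkephalin precursor of indirect-pathway neurons, had ratios of -1.76, -1.88 and -1.99 in cortex against -1.19, -1.27 and -1.17 in striatum (-0.66 ± 0.11, adjusted p = 0.000576) and fell in the sorted-cell channel too (-0.70). It was the 1 of 20 such genes to fall, against 9.88% of all genes. The dopamine receptors Drd1 (0.21, adjusted p = 0.291) and Drd2 (0.01, adjusted p = 0.948), the phosphodiesterase Pde10a (-0.06) and Ppp1r1b (0.27), which encodes DARPP-32, did not pass. Tac1, the substance P precursor (0.36), and the adenosine receptor Adora2a (0.33) were higher in cortex. Their calls were lost without any array but cortex replicate 2, with adjusted p up to 0.115 and 0.182, and 1 probe of each gene had the opposite sign. Both were called in the sorted-cell channel (0.55 for Tac1 and 0.56 for Adora2a), and both calls were lost with median centring, a normexp offset of 0, the scanner's log ratio or the mean over probes. Higher calls on this list numbered 4 with scaling between arrays and in the fit of the 6 arrays, and 0 with median centring or the mean over probes. The median of the 20 genes was 0.11.

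The Dlx factors, which set GABAergic fate throughout the ventral forebrain, did not all run one way. Dlx2 had ratios of 1.57, 1.95 and 1.57 in cortex against 2.31, 2.38 and 2.26 in striatum (-0.62 ± 0.13, adjusted p = 0.00302), with a sorted-cell difference of -0.46 (adjusted p = 0.0743). Its call was also lost with a normexp offset of 0 (-0.60, adjusted p = 0.0557) and in the scanner's log ratio (-0.34, adjusted p = 0.2). Dlx6 had 2.83, 2.67 and 2.75 in cortex against 2.31, 2.25 and 2.10 in striatum (0.53 ± 0.12, adjusted p = 0.00491), and was called in the sorted-cell channel too (0.73). Neither gene overlapped between regions, as at 44.4% of all genes, and the call of Dlx6 was lost with median centring or scaling between arrays. Dlx1 (0.14) and Dlx5 (-0.17) did not pass, and all 4 stood well above the reference in cortex and striatum alike. Gsx1, a homeobox factor of ventral progenitors, had -1.86, -2.13 and -2.05 in cortex against -0.68, -0.67 and -0.55 in striatum (-1.38 ± 0.13, adjusted p = 1.41e-06). Its relative Gsx2 differed by -0.08 and was not called. Dlx6os1, the long noncoding RNA also called Evf2, was higher (0.34, sorted-cell channel 0.54 with adjusted p = 0.0321), a call lost with median centring (0.21) or scaling between arrays (0.02), and without cortex replicate 1 or 3 or striatum replicate 2 or 3 (adjusted p up to 0.0779). Of the 9 genes, 2 were higher and 3 lower, with a median of -0.13.

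The transcript of the Dlx locus with the clearest rise was Dlx6os2, listed in RefSeq on chromosome 6 within the span of Dlx6 and Dlx6os1. Dlx6os2 had ratios of 3.19, 2.73 and 2.76 in cortex against 2.18, 1.60 and 1.63 in striatum (1.09 ± 0.23, adjusted p = 0.003), and 1.1 in the sorted-cell channel with 0.01 in the reference. It led the genes higher in both channels, an order drawn up after the channels were seen. The labels describe Klenow labelling of PCR-amplified cDNA and do not say that strand was kept, so Dlx6 and its antisense transcripts may share signal. The 2 annotated starts of Dlx6os1 are shown with the same motifs in capitals, because Dlx6os2 was higher in both channels at this locus.
Dlx6os1 start 1, chr6:6861634-6861933, minus strand: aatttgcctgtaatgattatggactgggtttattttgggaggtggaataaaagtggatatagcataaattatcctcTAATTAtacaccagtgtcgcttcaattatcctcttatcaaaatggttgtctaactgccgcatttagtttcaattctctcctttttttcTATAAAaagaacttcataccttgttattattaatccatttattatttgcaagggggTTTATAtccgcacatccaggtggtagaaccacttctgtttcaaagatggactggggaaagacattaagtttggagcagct
Dlx6os1 start 2, chr6:6869484-6869783, minus strand: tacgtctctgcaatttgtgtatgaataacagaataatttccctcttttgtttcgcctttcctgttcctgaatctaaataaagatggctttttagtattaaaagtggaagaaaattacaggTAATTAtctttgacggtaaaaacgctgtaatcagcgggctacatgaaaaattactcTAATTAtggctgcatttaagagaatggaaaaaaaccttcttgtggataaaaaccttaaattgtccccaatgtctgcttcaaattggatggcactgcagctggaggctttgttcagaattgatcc
The homeodomain core TAATTA, present in 5.29% of promoters, stood 174 bases upstream at start 1 and 130 and 74 bases upstream at start 2. Start 1 also held TATA box letters 86 bases upstream and, on the opposite strand, 30 bases upstream (13.6% of promoters). Whether a Dlx protein binds these letters is not measured here.

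**Figure D3:**
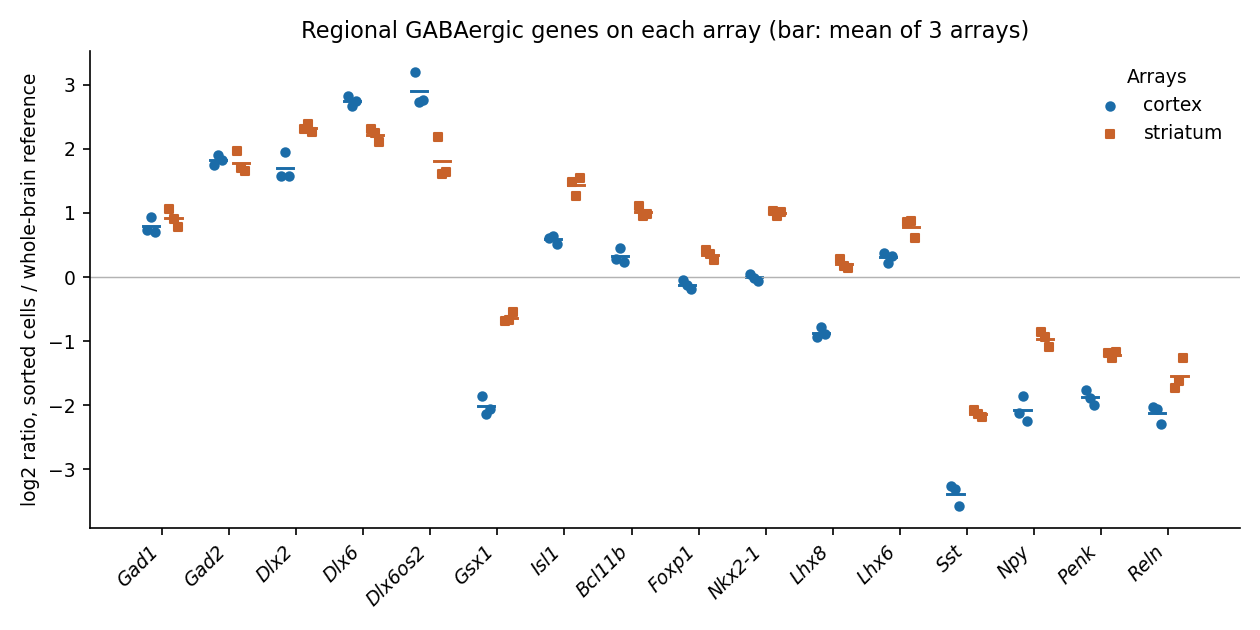
Log2 ratio of sorted cells to whole-brain reference on each cortex array (circles) and striatum array (squares) for 16 GABAergic regional genes, with the mean as a bar. Gad1 and Gad2 overlap between regions, Dlx6 and Dlx6os2 stand higher in cortex, and Gsx1, Isl1, Nkx2-1, Lhx8, Sst, Npy and Penk stand lower.

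Besides Dlx6os2, the 15 genes with the highest differences called in both channels were Tesmin, Junb, Dcaf12l2, Arhgap31, Ints4, Napsa, 1700018A04Rik, Ccdc116, Iba57, Fgb, Zfp13, Ece2, Ccdc91 and 6330415B21Rik, from 1.06 for Tesmin to 0.85 for 6330415B21Rik. Arhgap31, a GTPase-activating protein for Cdc42 and Rac, had ratios of 1.73, 1.5 and 1.59 in cortex against 0.71, 0.48 and 0.65 in striatum (1.00 ± 0.10, adjusted p = 2.75e-06). Ece2, an endothelin-converting enzyme of neural tissue, had 1.88, 1.57 and 1.96 in cortex against 1.12, 0.82 and 0.84 in striatum (0.88 ± 0.14, adjusted p = 0.00035). Both were apart between regions on every array, as were 44.4% of all genes, while another probe gave 0.13 for Arhgap31 and 0.22 for Ece2. The spots of Junb on 4 of 6 arrays, and of Dcaf12l2 and Zfp13 on 5 of 6, were saturated. Another probe of Tesmin, Dcaf12l2, Ints4, Ccdc116 and Iba57 gave a difference of -0.06, -0.01, -0.06, -0.31 and -0.14. Napsa, napsin A, is a lung list gene and the 1 of that list called higher in both channels.

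Guidance and migration genes differed between regions in both directions. Efna5, an ephrin ligand, had ratios of -1.20, -0.94 and -1.34 in cortex against 0.01, -0.08 and -0.07 in striatum (-1.11 ± 0.10, adjusted p = 1.41e-06). Robo1, a receptor for Slit repellents, had 0.46, 0.53 and 0.46 in cortex against 1.22, 1.12 and 0.99 in striatum (-0.63 ± 0.08, adjusted p = 6.94e-05). Robo2, its paralogue, ran the other way, with 0.78, 0.70 and 0.61 in cortex against 0.26, 0.28 and 0.22 in striatum (0.44 ± 0.10, adjusted p = 0.00493). All 3 were called in the sorted-cell channel and were apart on every array, as were 44.4% of all genes. Of the 6 probes of Robo2, 5 had this sign, and its call was lost with the mean over probes (0.18, adjusted p = 0.0896) and with median centring (0.31, adjusted p = 0.138). Of 30 genes measured, 7 fell: Efna5, Robo1, the semaphorin co-receptors Nrp1 (-0.68) and Nrp2 (-0.44), the ephrin Efnb3 (-0.54), the adhesion molecule Chl1 (-0.49) and the Eph receptor Ephb3 (-0.31). Another 7 were higher: Robo2, Epha5 (0.54), Ephb1 (0.49), the neuregulins Nrg3 (0.48) and Nrg1 (0.39), the chemokine Cxcl12 (0.44) and the Slit ligand Slit1 (0.25). Of these 7, Robo2, Nrg3 and Slit1 were called in the sorted-cell channel. Higher calls numbered 3 without cortex replicate 1, 4 without striatum replicate 2, 2 with median centring and 2 with the mean over probes. Single omissions that ended a call were cortex replicate 1 for Cxcl12 (adjusted p = 0.0787), cortex replicate 1 or striatum replicate 2 for Nrg1 (up to 0.0827), every array but cortex replicate 2 for Ephb1 (up to 0.136) and every one of the 6 for Slit1 (up to 0.115). Ephb3 lost its call without cortex replicate 1 or striatum replicate 2 or 3 (up to 0.0791), and Nrp2 without cortex replicate 3 or striatum replicate 3 (up to 0.053).

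Of 16 caudal eminence genes measured, limma called 1 lower and 0 higher, against 9.88% and 8.94% of all genes. Reln, the extracellular matrix protein reelin, had ratios of -2.02, -2.06 and -2.29 in cortex against -1.73, -1.62 and -1.26 in striatum (-0.58 ± 0.12, adjusted p = 0.00245). Sp8 (-0.18), Prox1 (0.14), Nr2f2 (-0.22), Htr3a (-0.07) and Calb2 (-0.06) did not pass. Vip was well above background in sorted cells on 0 cortex arrays and 1 striatum array, too dim for a comparison. Sp8, a zinc-finger factor of caudal and olfactory interneurons, was far above the reference in both regions, at 2.74 in cortex and 2.92 in striatum. With scaling between arrays 3 genes of this list were called higher.

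In the retinoic acid pathway 2 of 16 genes fell and 2 were higher, against 9.88% and 8.94% of all genes. The receptor Rara had ratios of -0.08, -0.23 and -0.12 in cortex against 0.40, 0.33 and 0.35 in striatum (-0.50 ± 0.12, adjusted p = 0.0064) and fell in the sorted-cell channel too (-0.38). The short-chain dehydrogenase gene Dhrs3 fell by 0.53, a call lost without cortex replicate 2 or 3 or striatum replicate 1 or 3 (adjusted p up to 0.0864). The synthesising enzyme gene Aldh1a1 had -0.35, -0.16 and -0.22 in cortex against -1.53, -1.29 and -1.07 in striatum (1.05 ± 0.19, adjusted p = 0.00108), of which 0.23 lay in the sorted-cell channel (adjusted p = 0.511) and -0.82 in the reference. The receptor Rxrb was higher by 0.59, while its other probe differed by -0.12 and its sorted-cell channel did not pass (adjusted p = 0.0512). Of the receptor genes, 1 of 14 GABA receptor subunits (Gabbr2, -0.57) and 1 of 18 glutamate receptor subunits (Grik5, -0.31) fell, and 9.88% of all genes did. The GABA receptor count was 4 higher with scaling between arrays, 3 higher in the fits of the 6 or the 12 regional arrays, and 3 lower with a normexp offset of 0 or the scanner's log ratio. The glutamate receptor count was 3 higher and 3 lower in the fit of the 6 arrays. Gabbr2 lost its call without cortex replicate 3 or striatum replicate 2 (up to 0.0811), and Grik5 without any array but striatum replicate 2 (up to 0.143).

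**Figure D4:**
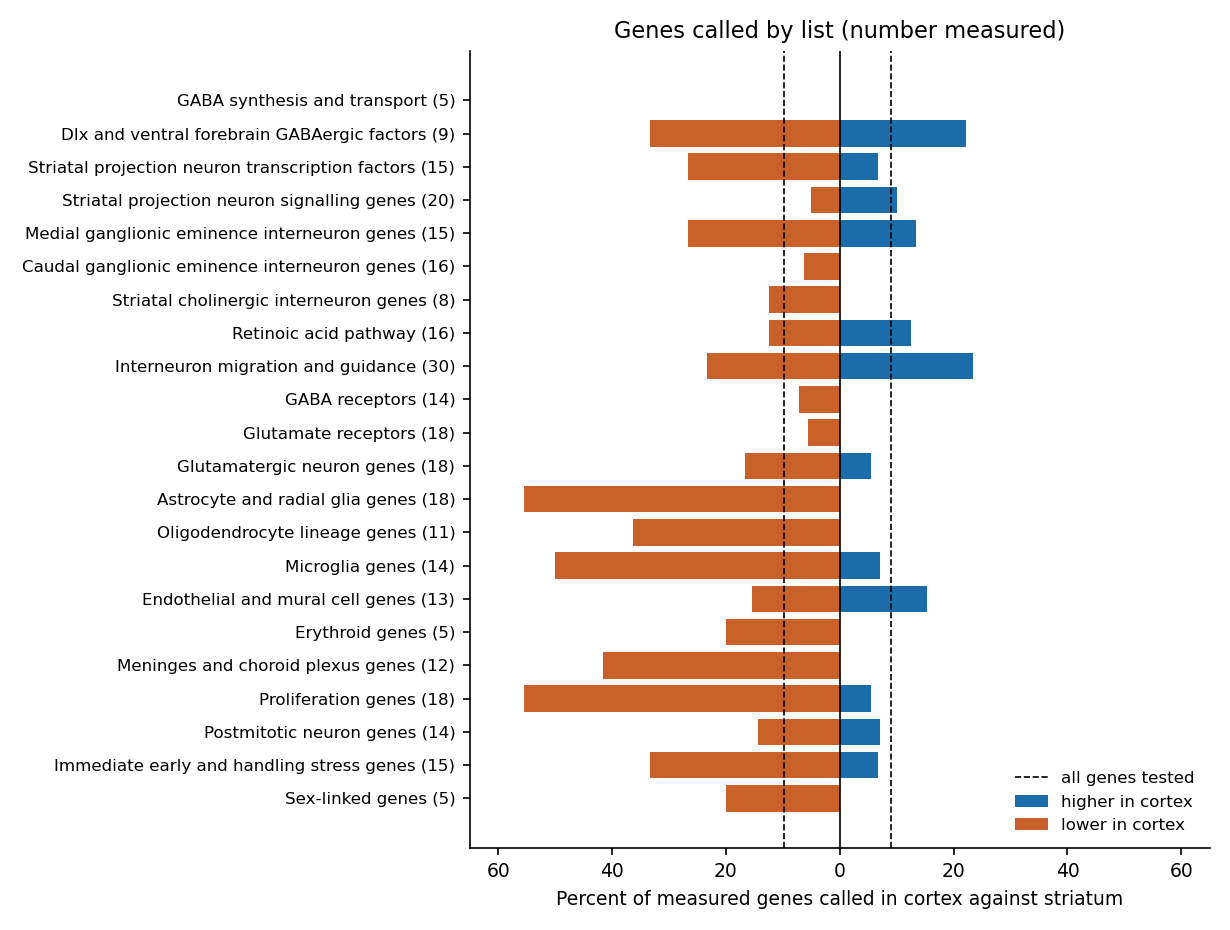
Percent of measured genes of each of 22 lists called higher in cortex (right) or lower in cortex (left), with the number measured in brackets and dashed lines at the shares of all genes tested (8.94% and 9.88%). Astrocyte and radial glia, microglia and proliferation genes have the highest shares lower in cortex.

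The 15 lowest differences were those of Ttr, Sulf1, Enpp2, Hba-a1, Slc1a3, Dbi, Igfbp7, Igf2, Sparc, Mt2, Foxj1, Cldn5, Laptm5, Gsx1 and Plagl1, from -2.82 to -1.30. Apart from Gsx1 they are best known from other cells than GABAergic neurons or from several cell types, and each of the 15 was called under every alternative run on it, the sorted-cell channel included. Sulf1 was not among the genes well above background on all 6 arrays, so that alternative was not run on it. Another probe differed by only -0.08 for Sparc and -0.12 for Plagl1, and by -1.56 for Igf2 and -0.93 for Laptm5. Ttr, the thyroid hormone carrier transthyretin made by choroid plexus, had ratios of -1.44, -1.48 and -1.55 in cortex against 1.5, 0.85 and 1.64 in striatum (-2.82 ± 0.19, adjusted p = 3.34e-08). Its sorted-cell signal was 170, 313 and 265 units on cortex arrays and 2980, 1870 and 4000 on striatum arrays. Ttr thus lay below the whole brain on every cortex array and above it on every striatum array. Enpp2, the enzyme autotaxin of choroid plexus and glia, had -1.45, -1.36 and -1.51 in cortex against 0.62, 0.07 and 0.66 in striatum (-1.89 ± 0.15, adjusted p = 3.05e-07). Sulf1, a heparan sulfatase, had -1.55, -1.73 and -2.03 in cortex against 0.46, -0.20 and 0.58 in striatum (-2.05 ± 0.20, adjusted p = 2.55e-06). These were the 3 lowest differences. Foxj1, the forkhead factor of ciliated ependymal and choroid cells, had -1.94, -2.06 and -2.32 in cortex against -0.53, -0.61 and -0.66 in striatum (-1.5 ± 0.11, adjusted p = 1.52e-07).

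Of 12 meninges and choroid plexus genes, 5 fell in cortex and 0 rose: Ttr, the growth factor Igf2 (-1.58), the homeobox gene Otx2 (-0.96), Apod (-0.72) and Ptgds (-0.37). The mean of the list lay between -1.70 and -1.56 on cortex arrays and between -1.17 and -0.95 on striatum arrays. Otx2 was not well above background in sorted cells on any cortex array, so its sorted-cell signal was at least 2.15-fold lower in cortex than in striatum (adjusted p = 0.000127). Ptgds lost its call without cortex replicate 2 or 3 or striatum replicate 3 (adjusted p up to 0.175), and 3 of the 12 fell with scaling between arrays. The fibroblast collagens Col1a1 (0.29), Col1a2 (-0.11) and Col3a1 (-0.08) did not pass.

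Astrocyte and radial glia genes fell together in number: 10 of 18 were lower in cortex and 0 higher, with a median of -0.39. Slc1a3, the glutamate transporter GLAST, had ratios of -2.77, -2.88 and -3.08 in cortex against -0.97, -1.18 and -1.11 in striatum (-1.82 ± 0.10, adjusted p = 6.39e-09), while its other probe differed by 0.09. Hes1, a Notch target of radial glia, had -2.04, -2.52 and -2.31 in cortex against -0.99, -1.14 and -0.89 in striatum (-1.28 ± 0.12, adjusted p = 1.39e-06). Fabp7, the brain lipid-binding protein, had -2.50, -2.67 and -2.76 in cortex against -1.35, -1.54 and -1.50 in striatum (-1.18 ± 0.10, adjusted p = 8.95e-07). Every array of both regions was below the reference for these 3 genes, so the sorted cells held less of them than whole brain in either region. Gja1 (-1.24), Apoe (-1.19), Aldoc (-0.86), Vim (-0.85), Aldh1l1 (-0.50), Glul (-0.45) and Sox9 (-0.32) fell as well, Sox9 not without cortex replicate 1 or striatum replicate 2 (adjusted p up to 0.0583). Gfap (0.05), Aqp4 (-0.01) and Hes5 (0.16), which mark the same cells, did not pass. The list's mean lay between -1.29 and -1.15 on cortex arrays and between -0.78 and -0.72 on striatum arrays. In the sorted-cell channel 8 of the 18 fell.

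Of 14 microglia genes, 7 fell and 1 rose. Laptm5, a lysosomal protein of blood-derived cells, had ratios of -1.62, -1.40 and -1.72 in cortex against -0.06, -0.28 and -0.20 in striatum (-1.40 ± 0.13, adjusted p = 1.39e-06). Fcer1g, an immune receptor chain, had -1.63, -1.64 and -1.57 in cortex against -0.43, -0.50 and -0.18 in striatum (-1.24 ± 0.10, adjusted p = 5.49e-07). Tyrobp (-0.94), Csf1r (-0.85), Ctss (-0.82), C1qa (-0.58) and C1qc (-0.53) fell too. Aif1 was higher by 0.40 (sorted-cell channel 0.53, adjusted p = 0.0356), with another probe at -0.18, and lost the call with median centring or the mean over probes and without cortex replicate 3 (adjusted p = 0.0558). The same 7 fell in the sorted-cell channel, whereas P2ry12 (-0.14), Cx3cr1 (-0.02) and Trem2 (0.16) did not pass. Of 11 oligodendrocyte lineage genes, 4 fell and 0 rose: Pdgfra (-0.70), the receptor of precursor cells, and the factors Olig1 (-0.68), Olig2 (-0.59) and Sox10 (-0.59). Sox10 had another probe at 0.23, and the myelin gene Mbp (-0.24) did not pass.

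Vascular and blood genes gave single large differences. Cldn5, the tight junction protein of brain endothelium, had ratios of -2.17, -2.13 and -1.86 in cortex against -0.64, -1.03 and -0.25 in striatum (-1.41 ± 0.14, adjusted p = 2.75e-06). Pecam1 (-0.25) and Cdh5 (-0.16) did not pass. Rgs5 fell by 0.41, a call lost without any array but cortex replicate 1 (up to 0.121). Flt1 (1.07) and Ly6c1 (0.65) were higher in the ratio, but their sorted-cell differences were -0.34 and 0.11, neither called. Ly6c1 lost its call without striatum replicate 1 (adjusted p = 0.0542). Hba-a1, an alpha globin with a near-identical neighbour, had -3.40, -3.28 and -3.78 in cortex against -1.57, -1.63 and -1.77 in striatum (-1.83 ± 0.16, adjusted p = 1.15e-06), while the other 4 erythroid genes did not pass. What part non-GABAergic cells or their RNA had in the neuronal differences was not tested.

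**Figure D5:**
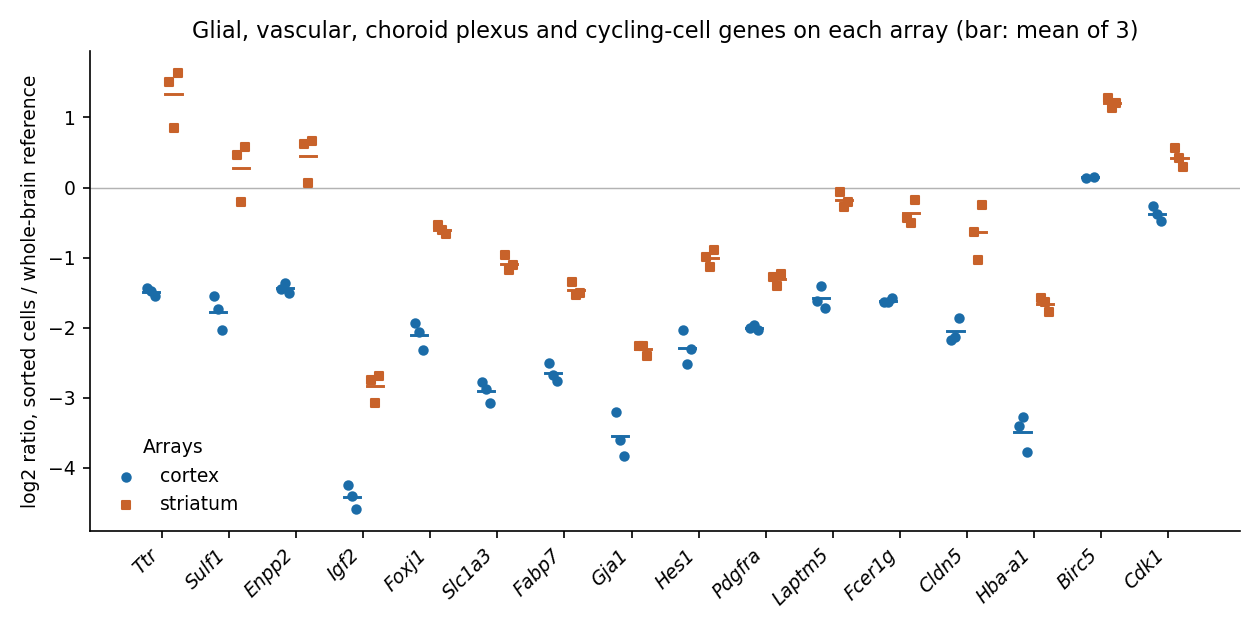
Log2 ratio of sorted cells to whole-brain reference on each cortex array (circles) and striatum array (squares) for 16 choroid plexus, glial, vascular, blood and cell-cycle genes, with the mean as a bar (Birc5 has 2 cortex values). All 16 genes are lower on every cortex array than on every striatum array, a pattern found at 19.4% of all genes. For those among the genes named for the lowest differences, the choice required this pattern.

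Cell-cycle genes were lower in cortex for 10 of 18 members and higher for 1, with a median of -0.55. Cdk1, the mitotic kinase, had ratios of -0.26, -0.38 and -0.48 in cortex against 0.56, 0.42 and 0.29 in striatum (-0.80 ± 0.12, adjusted p = 0.000236). Birc5, which encodes survivin, had 0.14 and 0.15 on cortex replicates 1 and 3 against 1.28, 1.13 and 1.21 in striatum (-1.06 ± 0.19, adjusted p = 0.00121), its spot on cortex replicate 2 having been dropped as an outlier. Ccna2 (-0.68), Hmgb2 (-0.67), Mcm2 (-0.60), Top2a, Aurkb, Mcm5 and Rrm2 (-0.56 each) and Ccnb1 (-0.55) fell also. Aurkb was not well above background on any cortex array, and its sorted-cell signal overlapped between the regions (-0.11, adjusted p = 0.593). Its call was lost without cortex replicate 1 (adjusted p = 0.061). Ccnd2 was higher (0.28), not in the sorted-cell channel (0.07), and not without cortex replicate 1 or 3 or striatum replicate 2 or 3 (up to 0.159). Mki67 (0.09) and Pcna (-0.20) did not pass. The list's mean lay between 0.02 and 0.06 on cortex arrays and between 0.32 and 0.41 on striatum arrays, and 7 of the 18 fell in the sorted-cell channel. Of 14 genes of postmitotic neurons, the synaptic vesicle genes Syt1 (-0.54) and Syn1 (-0.37) fell, though not with the mean over probes (-0.20 and -0.09). Elavl3 was higher (0.43, sorted-cell channel 0.60), not with median centring (0.18), while Tubb3 (-0.06), Stmn2 (-0.03) and Snap25 (-0.01) did not pass. Syn1 lost its call without any array but striatum replicate 1 (up to 0.122).

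The list of glutamatergic neuron genes had a mean below the reference, at -1.39 to -1.27 on cortex arrays and -1.43 to -1.30 on striatum arrays. Not every member was low. Emx2 had ratios of 0.51, 0.45 and 0.53 in cortex and 0.19, 0.23 and 0.26 in striatum. Neurod1 had 0.04, 0.17 and -0.05 in cortex and 0.35, 0.28 and 0.24 in striatum. It was not well above background in sorted cells on any cortex array, so its cortex ratios are limited by dim signal. Slc17a7 (-2.76 in cortex, -3.34 in striatum, well above background in sorted cells on 1 of 3 cortex arrays) and Neurod6 (-2.74 and -2.99) did not differ past the threshold. The cortical factor Tbr1 had -2.62, -2.70 and -2.95 in cortex against -2.34, -2.06 and -2.05 in striatum (-0.61 ± 0.13, adjusted p = 0.00439). Lhx2 (-0.75) and Nrn1 (-0.33) fell as well, Nrn1 not without any array but cortex replicate 2 (up to 0.143). The vesicular transporter Slc17a6 was higher, with -0.60, -0.75 and -0.76 in cortex against -1.52, -1.22 and -1.26 in striatum (0.63 ± 0.12, adjusted p = 0.00169), and was called in the sorted-cell channel (0.82), although its other probe differed by -0.45 and the mean over probes did not pass (0.09). Of the 18 genes 3 fell and 1 was higher, and with scaling between arrays 7 were higher.

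Immediate early genes, which dissociation and sorting can induce, had a list mean above the reference in both regions. It was 0.87 to 0.90 on cortex arrays and 0.94 to 1.07 on striatum arrays. Not every member was high. Egr2 had -0.42, -0.55 and -0.44 in cortex and -0.10, -0.21 and -0.27 in striatum. Hspa1a had 0.04, -0.04 and -0.10 in cortex and -0.12, -0.16 and 0.14 in striatum. Of 15 genes measured on this list, 5 fell in cortex and 1 was higher. Ier2 had ratios of 0.40, 0.44 and 0.45 in cortex against 1.36, 1.06 and 1.35 in striatum (-0.83 ± 0.10, adjusted p = 2.48e-05), while its other probe differed by 0.04. Fos (-0.60), Jun (-0.48), Jund (-0.37) and Btg2 (-0.27) fell, but none of these 4 was called in the sorted-cell channel (-0.61, -0.39, -0.41 and -0.09 in the same order). Junb was higher (1.03), with saturated spots on 4 of 6 arrays, and its call was lost with median centring, a normexp offset of 0 or the scanner's log ratio. Fos also lost its call in the fit of the 12 regional arrays, with a normexp offset of 0, the scanner's log ratio, no background correction or the mean over probes. Only Ier2 and Jun of these 6 kept their calls without any single array. The number lower was 2 without cortex replicate 1, cortex replicate 3 or striatum replicate 1, and 3 without striatum replicate 2 or 3. The highest adjusted p was 0.159 for Fos, 0.0883 for Jund, 0.165 for Btg2 and 0.128 for Junb. Of the sex-linked genes, Ddx3y on the Y chromosome was lower (-0.38) with another probe at 0.26 and no call without any array but cortex replicate 2 (up to 0.229), and Xist (0.27), Eif2s3y (0.07), Kdm5d (0.09) and Uty (-0.04) did not pass.

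Across the 22 lists, 40 of the 91 called list members outside the 30 genes named above for the highest and lowest differences kept their call under every alternative run on them, and all 40 were lower in cortex. The medial and caudal eminence lists gave Nkx2-1, Sst, Npy and Reln. The striatal projection and cholinergic neuron lists gave Isl1, Bcl11b, Foxp1, Penk and Lhx8. The retinoic acid and guidance lists gave Rara, Efna5, Efnb3, Nrp1 and Robo1. The rest came from the astrocyte, microglia, oligodendrocyte, choroid plexus, cell-cycle, glutamatergic and immediate early lists. They included Apoe, Fcer1g, Pdgfra, Otx2, Cdk1, Tbr1 and Ier2. Outside those 30 genes, 0 of the list members called higher in cortex kept their call under every alternative.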

How the data were processed

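Agilent whole-genome mouse arrays in 2 colours were read from the scanner files. The authors quantified mean spot intensity and local background intensity with Agilent Feature Extraction 8.1.1.1, per the file headers and the submitters' processing notes. The deposited log10 ratio of sorted cells over reference, background-subtracted and dye-normalized per the file headers, served as an alternative. The deposited value table holds the same log10 ratio to within 0.005. The labels call the Cy3 channel red, so direction rests on the dye names. The genome build was not given in the sources used here.

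For the log2 ratios, limma 3.58.1 (R 4.3.3, files read with the package data.table, version 1.17.8) applied normexp background correction with an offset of 50, then loess within arrays, with controls and marked spots at weight 0. Each gene took its brightest probe. Of 41173 probes, 21563 were named through their accession in a RefSeq table of GRCm38.p6, 5363 through a current symbol and 4597 through an older one, and the other 9650 carry the array's own name. The filter kept 27257 of 28650 genes, those well above background on 3 or more arrays in the sorted cells, or on 8 or more in the reference. Signal over background and the number of arrays limit the precision. The model had a mean for each of 5 groups over all 16 arrays (lmFit, eBayes) and was tested on simulated data. The sorted-cell channel was fitted alone in the same way, after quantile normalization of mean brightness between arrays. Its values were rebuilt from the loess-normalized ratio and the mean brightness of both dyes, so they are not independent of the reference. For a gene not well above background in 1 group, the fold is a bound in the sorted-cell channel, from the group means with each dim array raised to the lowest signal well above background on it. Figures were drawn with matplotlib 3.10.9.

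The genes named are the 15 highest and 15 lowest differences among called genes whose arrays do not overlap, and any member of the 22 lists. A few list members are counted but not reported here by name. The members and lists were chosen with earlier results of these data known. The lung list and the order by both channels were added after the values were seen. Alternatives varied the background correction, normalization, filter, probe choice, arrays in the fit, replicate block and channel, and left out each array. Slide or scan day could not be used as a block, since each slide held 1 array and all regional arrays share 1 scan day.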

Additional observations from a re-analysis of the deposited data

Results flagged for a closer look

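Among the 30 named genes, 9 stood on opposite sides of the whole-brain reference in the 2 regions on every array. The cortex minus striatum contrast itself tested each difference. Ttr (-2.82), Enpp2 (-1.89) and Mt2 (-1.52) were below the reference on all 3 cortex arrays and above it on all 3 striatum arrays. These 3 were also lower in cortex in the sorted-cell channel alone, Ttr by -2.78, Enpp2 by -1.88 and Mt2 by -1.26. Mt2, a metallothionein, had log2 ratios of -1.22, -1.21 and -1.46 in cortex against 0.30, 0.08 and 0.30 in striatum.

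Calcrl (1.96), Lyz1 (1.8), Inmt (1.72), Selenbp2 (1.63), Scgb1a1 (1.36) and Aqp5 (1.19) were above the reference on all 3 cortex arrays and below it on all 3 striatum arrays. In cortex the distance was small for some. Limma's test of cortex cells against the reference did not pass for Scgb1a1 (adjusted p = 0.0836) or Aqp5 (0.771), and Inmt had 0.02 on cortex replicate 2. In the sorted-cell channel alone each of the 6 genes had the opposite sign, from -0.27 for Calcrl and Inmt to -2.13 for Scgb1a1. In the reference channel they differed by -2.23, -2.17, -1.99, -1.98, -3.49 and -1.49, given in the order in which the genes are listed.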

How the results depend on the processing

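Each of the 15 lowest genes kept its direction and call under every alternative run on it (Sulf1 was too dim for the one that asks for signal on all 6 arrays), and 7 of the 15 highest did so under every alternative but the sorted-cell channel alone. In that channel 14 of the 15 highest changed sign: Cyp2f2 -0.96, Sec14l3 -0.68, Calcrl -0.27, Lyz1 -0.37, Sftpc -3.0, Inmt -0.27, Sftpa1 -1.22, Selenbp1 -0.51, Gsn -1.49, Selenbp2 -0.35, Wfdc2 -1.04, Scgb1a1 -2.13, Cbr2 -2.22 and Aqp5 -0.31. Flt1 also changed sign there (-0.34), Adora2a did with the mean over probes (-0.11) and Ptgds with scaling between arrays (0.02). Of 5129 genes called, 2298 were also called in the sorted-cell channel, a setting chosen after seeing the data. The fit of the 6 cortex and striatum arrays alone called 8052 in the ratio and 6362 in the sorted-cell channel, against 3608 in that channel with all arrays. Leaving out 1 array gave 2627 to 4805 in the ratio and 1092 to 2077 in the sorted-cell channel, from fewer samples. At least a 2-fold difference was reached by 615 genes with a normexp offset of 0 and by 663 with the scanner log ratio, against 102, and the cause was not tested. The labels do not say that equal replicate numbers share animals, and the deviations of equal numbers correlated at 0.002, 0.046 and 0.153, so pairing is not established. With the replicate block on 6 arrays 8350 genes were called in the ratio and 7553 in the sorted-cell channel, and with it on the 12 regional arrays 5901 in the ratio. Dim signals limit the rest: 22498 of 27257 genes were well above background on all 6 arrays. Slide and scan day as a block were not run.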
